A study of Mus musculus with 9 samples.

Results

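Serglycin (Srgn), the proteoglycan core protein of mast cell granules, and 8 enzymes that build and sulfate heparin chains (Ndst1, Ndst2, Glce, Hs2st1, Hs6st1, Ext1, Ext2 and Extl3) were followed in mouse bone marrow-derived mast cells (BMMCs). These 9 genes were picked by name, as the core protein and the main heparin-building steps, out of 47643 genes listed in the count table. All 9 had a median above 1 CPM (counts scaled to the library's depth) and were among the 11560 genes tested. RNA was measured in 9 libraries of BMMCs grown from C57BL/6 bone marrow for at least 4 weeks in 20% serum and 30% medium conditioned by WEHI-3 cells. The 3 groups, with 3 libraries each, were Control, IgE+BSA (cells given IgE and its antigen, which crosslinks the high-affinity IgE receptor) and IgE+BSA+Luteolin (the same with luteolin, a plant flavone). The labels give 10 µM luteolin for 24 h, and the order of luteolin and antigen is not clear from the sources. No source ties the replicates to separate animals or cultures, so p-values measure the spread between these libraries, which may be technical.

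Heparin is the most heavily sulfated form of heparan sulfate and is made in mast cells on serglycin. A linker sugar chain is first built on serines of the core protein, Extl3 adds the first N-acetylglucosamine, and the Ext1/Ext2 complex lengthens the chain with alternating glucuronic acid and N-acetylglucosamine. N-deacetylase/N-sulfotransferases (Ndst1 and Ndst2) then replace acetyl groups with sulfate, Glce turns glucuronic acid into iduronic acid, Hs2st1 sulfates the uronic acid, and Hs6st1 sulfates the sixth carbon of glucosamine. The chains hold positively charged proteases and histamine in the granule. Ndst2 is the form on which mast cell heparin depends, and cultured BMMCs are known to carry much of their serglycin with chondroitin sulfate.

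The attachment sites on serglycin lie in a run of alternating serine and glycine codons, shown here because it sets this core protein apart from others. In the annotated transcript Srgn-201, which codes for 152 residues, the run lies in exon 3 (the third of 3) and holds 10 serine-glycine pairs at chr10:62494998-62495057, minus strand, GRCm38. It is printed 5′ to 3′ with 12 bases on either side, and the capitals mark the 20 codons of the run.
Srgn, chr10:62494986-62495069: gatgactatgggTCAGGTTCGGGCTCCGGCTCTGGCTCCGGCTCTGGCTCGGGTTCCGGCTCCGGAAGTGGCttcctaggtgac

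The 250 bases upstream of the start were examined for the members with an entry in the RefSeq promoter table (GRCm38.p6), which matched 6 of 9 members and left out Ndst1, Ext1 and Extl3. Both strands were searched for the cyclic AMP response element (TGACGTCA), for the binding letters of AP-1 (TGANTCA), for an E-box in either of its common forms (CACGTG or, less strictly, CACATG), for the letters bound by GATA factors (AGATAA), for the TATA box (TATAAA) and for the GC box (GGGCGG). No window of a member held more than 1 kind of match, so no matches of different motifs overlapped. The windows of Srgn, Ndst2 and Ext2 are shown because these are the core protein, the enzyme with the highest level and the member with the smallest adjusted p under luteolin. Capitals mark the matches.
Srgn, chr10:62527446-62527695, minus strand: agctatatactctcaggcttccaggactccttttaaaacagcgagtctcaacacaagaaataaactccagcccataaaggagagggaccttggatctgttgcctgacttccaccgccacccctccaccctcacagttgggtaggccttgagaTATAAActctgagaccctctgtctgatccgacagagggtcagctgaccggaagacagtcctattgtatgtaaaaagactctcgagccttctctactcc
Ndst2, chr14:20734563-20734812, minus strand: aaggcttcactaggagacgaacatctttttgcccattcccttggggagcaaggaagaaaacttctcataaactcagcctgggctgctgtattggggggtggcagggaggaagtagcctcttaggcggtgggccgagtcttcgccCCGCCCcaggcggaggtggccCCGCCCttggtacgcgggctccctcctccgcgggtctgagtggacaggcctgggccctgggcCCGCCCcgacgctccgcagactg
Ext2, chr2:93822569-93822818, minus strand: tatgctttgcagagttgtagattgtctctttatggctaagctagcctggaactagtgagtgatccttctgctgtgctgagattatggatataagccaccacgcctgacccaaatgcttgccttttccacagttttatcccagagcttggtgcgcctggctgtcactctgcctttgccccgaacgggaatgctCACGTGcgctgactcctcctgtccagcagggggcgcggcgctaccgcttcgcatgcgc
The Srgn window held TATAAA 98 bases before the start, letters found in 12.4% of the 32851 windows in the table, and no GC box. Its second annotated start had none of the motifs. Ndst2 held the GC box 3 times, as did Glce, Hs6st1 held it 6 times and Hs2st1 once, against 32.7% of all windows with at least 1. Ext2 held a single CACGTG 58 bases before its start, letters found in 6.02% of all windows. The AP-1 and cyclic AMP response element letters, present in 6.75% and 1.55% of windows, were in none of the members' windows. GC content was 49.6% in the Srgn window, 54.8% in Ext2, 64.8% in Ndst2 and 76.4% in Hs6st1, and its median over all windows was 52.4%. These matches describe letters only.

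Total counts ranged from 9515004 (Control replicate 2) to 24605689, and 3 counts correspond to 0.122 to 0.315 CPM, which covers counting error only. All 12 mast cell markers were at 1 CPM or more in every library. Kit was at 2179 ± 382 CPM (SD, n = 3) in Control, Fcer1a at 5279 ± 1052 CPM, Ms4a2 at 1899 ± 95.7 CPM and Cpa3 at 26370 ± 5557 CPM. Stimulation was visible in Egr1, Tnf and Il13, since all 12 genes listed as a check of it rose in IgE+BSA and all 12 fell with luteolin. Control replicate 1 stood apart from the other Control libraries, with a chi-square per degree of freedom of 76.4 and 122 against them, whereas all other replicate pairs gave 3.83 to 13.4. Its 9 neutrophil markers summed to 225 CPM, against 9.40 and 8.29 CPM in Control replicates 2 and 3, 152 to 165 CPM in IgE+BSA and 176 to 206 CPM in IgE+BSA+Luteolin. The summed mast cell markers were also higher there, at 84420 CPM against 55510 and 55710 CPM in Control replicates 2 and 3. The granule protease Mcpt2 was likewise at 4550 CPM in Control replicate 1 and at 180 and 158 CPM in Control replicates 2 and 3. In the stimulated groups Mcpt2 was at 2931 to 3252 CPM in IgE+BSA and 3879 to 4525 CPM in IgE+BSA+Luteolin. In Mcpt2 and the neutrophil markers, Control replicates 2 and 3 were thus the libraries furthest from the rest. Of the macrophage markers 6 of 11 reached 1 CPM in each library, and their sum ranged from 371 to 433 CPM. Of the 11 dendritic and lymphoid markers 3 reached 1 CPM in each library, with a sum of 33.7 to 62.8 CPM, and the T cell marker Cd3e was at 0 counts. Of the 9 erythroid and megakaryocyte markers 4 to 7 reached 1 CPM, with a sum of 1816 to 2306 CPM. Among these, Itga2b was at 1941 ± 199 CPM in Control. Values without Control replicate 1 are therefore given beside the members' comparisons with Control and the calls with stimulation. In bulk RNA, fewer cells of a type and less RNA per cell cannot be told apart.

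Serglycin mRNA was far above the mRNA of every enzyme. Lengths are those of all annotated exons of a gene together, 2196 bases for Srgn against 938 in Srgn-201. Levels and ratios per length depend on this choice. Per kilobase of exon, Srgn had a median of 2098 CPM per kb over the 9 libraries (1340 to 2205) and took 0.318% to 0.486% of all counts, ranking 9th to 14th among genes by count. Ndst2 came next, at a median of 98.3 CPM per kb (95.4 to 126). The other 7 enzymes were all at lower levels per length, from Hs6st1 at 14.7 CPM per kb (12.9 to 17.0) down to Glce at 0.948 CPM per kb (0.794 to 1.33). Between these lay Ext2 at 12.6, Extl3 at 7.35, Hs2st1 at 7.29, Ndst1 at 6.28 and Ext1 at 2.29 CPM per kb. Neighbours in this order whose ranges overlapped were Hs6st1 and Ext2, Extl3 and Hs2st1, and Hs2st1 and Ndst1. The coefficient of variation of the 9 genes over the 9 libraries had a median of 15.4% (9.11% to 17.2%). All 9 lay under the median of all genes tested, 17.7%, where most genes lay between 7.34% and 53.1%.

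**Figure D1:**
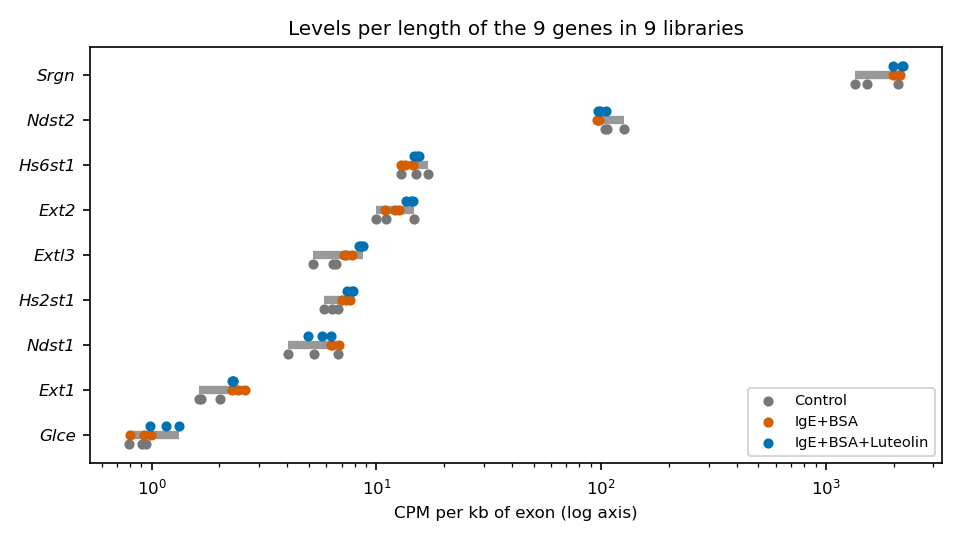
Level of each of the 9 genes in CPM per kilobase of exon (log axis), with 1 point per library coloured by group and a grey bar from the lowest to the highest library. Srgn lies at 1340 to 2205 CPM per kb and Ndst2 at 95.4 to 126, apart from the other 7 genes, which lie between 0.794 and 17.0.

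Paralogous and partner enzymes were expressed in unequal amounts per length. The Ndst2 level was 14.0 to 19.8 times the Ndst1 level in 8 libraries and 31.3 times in Control replicate 1. Ndst3, a further member of the family, was at 0.328 to 0.554 of the Ndst1 level. Hs6st2, a paralog of Hs6st1, was at 2.96 to 3.11 times its level in Control, 3.70 to 4.31 times in IgE+BSA and 3.86 to 4.19 times in IgE+BSA+Luteolin. All 3 Control libraries lay below the 6 others in this ratio. The Ext2 level exceeded that of Ext1 6.14 to 7.30 times in Control, 4.22 to 5.56 times in IgE+BSA and 5.84 to 6.32 times in IgE+BSA+Luteolin. Here the 3 IgE+BSA libraries lay below the 6 others. The Srgn level was 12.6 to 16.6 times that of Ndst2 in Control, 20.2 to 22.4 times in IgE+BSA and 18.9 to 22.7 times in IgE+BSA+Luteolin. These ratios were not tested. Counting may have been with or without strand, which the sources do not say, so Hs6st1 is uncertain where its exons share 447 bases with the antisense gene Gm37335. Glce shares 77 bases with the microRNA gene Mir5133.

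The first comparison asked how IgE and antigen change the genes. None of the 9 genes passed the threshold of an adjusted p under 0.05 (edgeR's quasi-likelihood test with Benjamini-Hochberg adjustment) between IgE+BSA and Control, where 3.27% of all genes tested passed. At an unadjusted p under 0.05 there was 1 gene (Ext1), against 2362 of the 11560 genes tested. DESeq2 and the limma trend and voom fits also called 0 of the 9, where they called 10.6%, 3.41% and 3.18% of all genes. With all 9 libraries in 1 fit Ext1 passed (0.46, edgeR adjusted p = 0.0392), 1 of the 9, against 9.56% of all genes. Their median log2 fold change was 0.22, against 0.02 over all genes tested. The libraries of the groups did not overlap for 4 of the 9 genes, of which Ndst2 was lower and Hs2st1, Ext1 and Extl3 were higher in IgE+BSA, while 28.7% of all genes did not overlap.

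Serglycin mRNA was at 4606, 3342 and 2942 CPM in Control replicates 1, 2 and 3, at 4654, 4703 and 4349 CPM in IgE+BSA and at 4785, 4842 and 4374 CPM in IgE+BSA+Luteolin. Control replicate 1 lay within the range of the stimulated groups, and Control replicates 2 and 3 lay below all 6 other libraries. The log2 fold change of IgE+BSA over Control was 0.33 ± 0.18 (SE), with a 95% interval of -0.10 to 0.75 and an adjusted p of 0.365 by edgeR. Luteolin libraries overlapped those of IgE+BSA, with a log2 fold change of 0.03 and an interval of -0.08 to 0.15.

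Among the enzymes that begin and lengthen the chain, Extl3, which adds the first N-acetylglucosamine, was at 39.1, 31.8 and 40.0 CPM in Control, 44.6, 47.1 and 43.3 CPM in IgE+BSA and 52.7, 51.6 and 50.6 CPM in IgE+BSA+Luteolin. The 3 groups did not overlap, with Control lowest and luteolin highest. Ext1, a subunit of the chain polymerase, was at 16.2, 13.2 and 13.4 CPM in Control, 19.5, 18.4 and 21.0 CPM in IgE+BSA and 18.6, 18.5 and 18.7 CPM in IgE+BSA+Luteolin. All stimulated libraries lay above all Control libraries, and the 2 stimulated groups overlapped. Ext2, the other subunit, was at 107, 73.3 and 80.9 CPM in Control, 89.1, 92.5 and 80.3 CPM in IgE+BSA and 105, 106 and 98.8 CPM in IgE+BSA+Luteolin. The luteolin libraries lay above those of IgE+BSA, and Control replicate 1 was the highest of all 9. Between IgE+BSA and Control the log2 fold change was 0.45 ± 0.14 (SE) for Ext1 (95% interval 0.12 to 0.79, edgeR adjusted p = 0.142) and 0.28 ± 0.13 for Extl3 (-0.02 to 0.58, adjusted p = 0.278). For Ext2 the fold was 0.999, with an interval of -0.39 to 0.39 on the log2 scale.

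Ndst2, which starts the sulfation of mast cell heparin, was at 574, 472 and 483 CPM in Control, 441, 434 and 446 CPM in IgE+BSA and 447, 442 and 478 CPM in IgE+BSA+Luteolin. Every IgE+BSA library was below every Control library, and the luteolin libraries overlapped both groups. Its paralog Ndst1 was at 33.4, 43.7 and 56.1 CPM in Control, 52.3, 56.6 and 52.0 CPM in IgE+BSA and 41.2, 47.3 and 52.1 CPM in IgE+BSA+Luteolin. In Control this gene spread over a wider range than in any other group, with replicate 1 lowest. The log2 fold change of IgE+BSA over Control was -0.21 ± 0.12 (SE) for Ndst2 (95% interval -0.49 to 0.06, edgeR adjusted p = 0.356) and 0.27 ± 0.18 for Ndst1 (-0.16 to 0.70, adjusted p = 0.458). Over 17 alternative settings the value for Ndst1 ranged from 0.04 to 0.48 and passed in 0.

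Of the enzymes that modify the chain further, Hs2st1, the uronic acid sulfotransferase, was at 47.8, 51.9 and 55.4 CPM in Control, 62.6, 59.8 and 57.8 CPM in IgE+BSA and 60.8, 64.0 and 64.6 CPM in IgE+BSA+Luteolin. All stimulated libraries lay above Control. Hs6st1 was at 71.4, 83.1 and 93.9 CPM in Control, 71.5, 80.3 and 74.0 CPM in IgE+BSA and 81.4, 83.7 and 85.7 CPM in IgE+BSA+Luteolin. Control spanned both other groups, and the luteolin libraries lay just above those of IgE+BSA. Glce, the epimerase, was at 6.47, 5.42 and 6.18 CPM in Control, 5.47, 6.35 and 6.78 CPM in IgE+BSA and 9.09, 6.72 and 7.88 CPM in IgE+BSA+Luteolin. It had the lowest counts of the 9 genes, 56 to 195 per library, and luteolin replicate 2 lay within the IgE+BSA range. Log2 fold changes of IgE+BSA over Control were 0.22 for Hs2st1 (95% interval -0.03 to 0.46), -0.14 for Hs6st1 (-0.43 to 0.16) and 0.03 for Glce (-0.39 to 0.46). The sign for Glce turned under other scalings.

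**Figure D2:**
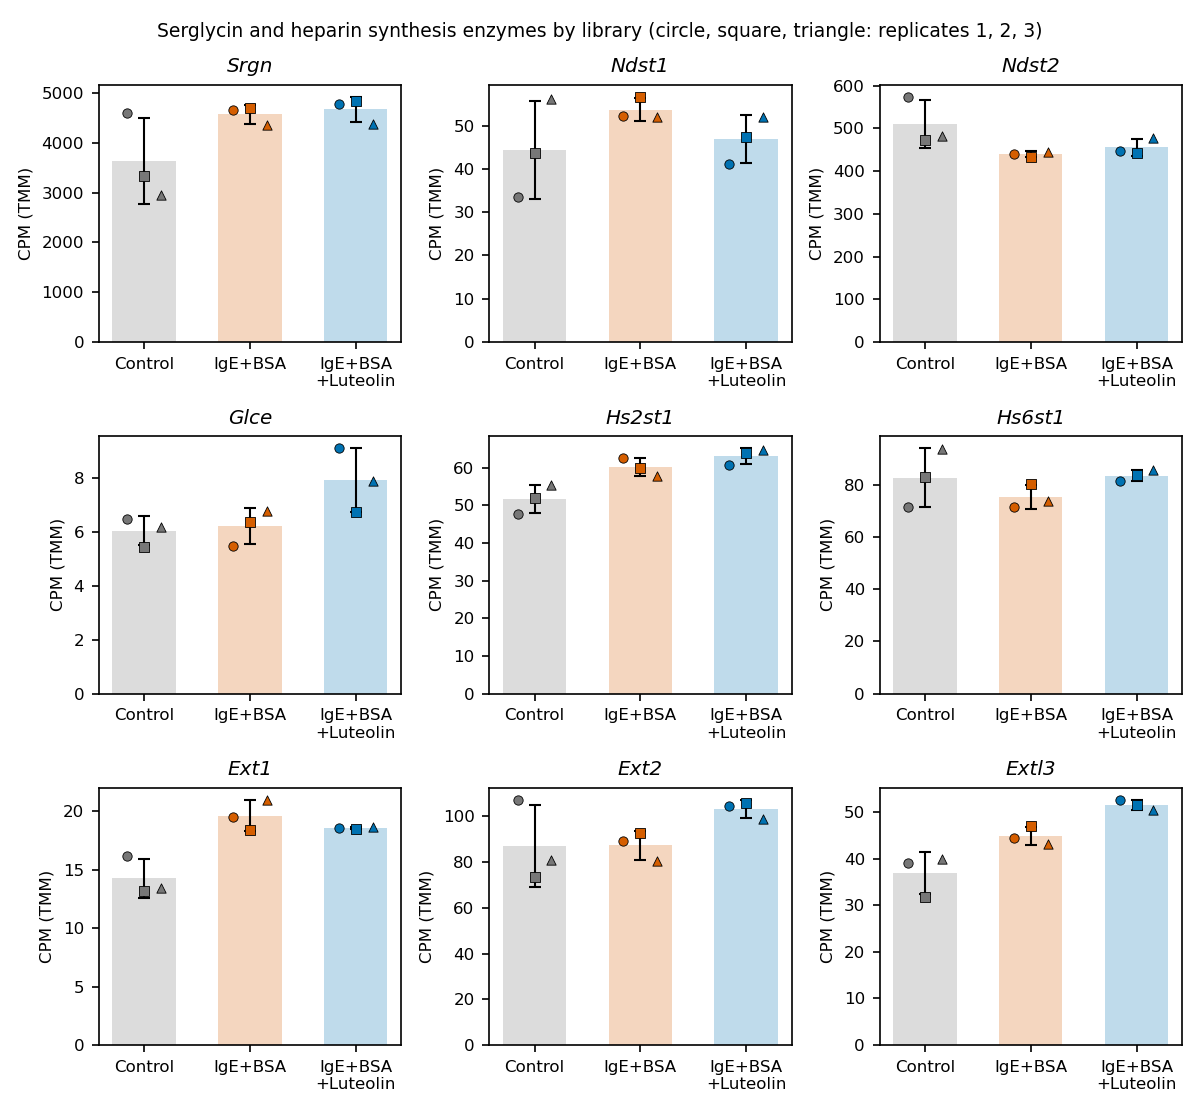
CPM (normalized by TMM factors) of each gene in each library, with bars for the mean of 3 libraries, error bars for the SD, and circles, squares and triangles for replicates 1, 2 and 3. Control replicate 1 (grey circle) is the highest Control library for Srgn, Ndst2, Glce, Ext1 and Ext2 and the lowest for Ndst1, Hs2st1 and Hs6st1, while Extl3 steps up from Control to IgE+BSA to IgE+BSA+Luteolin without overlap.

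Without Control replicate 1, 5 of the 9 genes passed between IgE+BSA and Control, against 45.0% of all genes, which also gained calls. Srgn (log2 fold change 0.49), Ext1 (0.51) and Extl3 (0.26) were then higher in IgE+BSA, and Ndst2 (-0.17) and Hs6st1 (-0.29) were lower. The other 4 did not pass: Ndst1 was at 0.04 in place of 0.27, Hs2st1 at 0.11 in place of 0.22, Ext2 at 0.13 and Glce at 0.03. Without this library the marker sums separated by group. The neutrophil markers summed to 9.40 and 8.29 CPM in Control replicates 2 and 3, against 152 to 165 CPM in IgE+BSA. The mast cell markers summed to 55510 and 55710 CPM, against 59400 to 66270 CPM. The protease Mcpt2 was also lower in these Control libraries, at the values given above. These differences go with the groups in this setting, and their part in the 5 calls was not tested.

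The second comparison asked what luteolin changes in stimulated cells. Extl3 and Ext2 rose in IgE+BSA+Luteolin compared with IgE+BSA, 2 of the 9 genes, and none fell. Over all genes 40.0% passed, with 18.1% higher and 21.9% lower, so the members' share was no larger than the background. Ext2 rose by 0.24 ± 0.06 on the log2 scale (SE, 95% interval 0.11 to 0.38, adjusted p = 0.00689 by edgeR), from 87.3 ± 6.30 to 103 ± 3.88 CPM (SD, n = 3). Extl3 rose by 0.20 ± 0.07 (interval 0.06 to 0.35, adjusted p = 0.0271 by edgeR), from 45.0 ± 1.93 to 51.6 ± 1.08 CPM. Both changes were small, at 1.18 and 1.15 times the level without luteolin. The members' median log2 fold change was 0.07, against 0.02 over all genes.

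The other 7 genes did not pass. Glce had the widest interval, with a log2 fold change of 0.35 (0.00 to 0.70) and an adjusted p of 0.099 by edgeR. Hs6st1 differed by 0.15 (0.02 to 0.29, adjusted p = 0.0605) and Ndst1 by -0.19 (-0.37 to -0.02, adjusted p = 0.0733). For Srgn, Ndst2, Hs2st1 and Ext1 the estimates lay between -0.08 and 0.07 and the intervals between -0.27 and 0.21. These bounds hold for this fit, and some of these genes passed under other scalings. The libraries of the 2 groups did not overlap for Hs6st1, Ext2 and Extl3, 3 of 9 genes, against 50.3% of all genes. Mast cell markers moved in the same comparison: of 12 markers 7 rose and 3 fell, and their sum was 59400 to 66270 CPM in IgE+BSA and 70990 to 82260 CPM with luteolin. The neutrophil marker sum was 152 to 165 and 176 to 206 CPM in these groups. Of 5 basophil markers 3 rose (Prss34, Cd200r3 and Mcpt8), and their sum was 1455 to 1512 and 1617 to 1764 CPM. The part of these markers in the 2 calls was not tested.

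The calls depended on the fit. With all 9 libraries in 1 fit, where the spread of the Control libraries enters, 0 of the 9 genes passed, against 9.46% of all genes. Extl3 also lost its call without IgE+BSA replicate 1 or 3 or without luteolin replicate 1 or 2 (log2 fold change 0.17 to 0.20, edgeR adjusted p = 0.0824 to 0.103), while Ext2 kept it without any single library. More members passed with the replicate number as a block (4, against 48.3% of genes), with upper-quartile factors (4, 45.7%), with a correction for gene length (6, 45.7%) and with library size alone (7, 48.6%). Beside Ext2 and Extl3, Hs6st1 passed as higher in all 4 of these, Glce in all but the block, and Ndst1 passed as lower with the block (-0.20, adjusted p = 0.0228). Over all 17 alternatives Ndst1 passed in 2, with log2 fold changes from -0.28 to -0.03. Hs2st1 passed as higher with the length correction (0.24, edgeR adjusted p = 0.0047) and library size alone (0.19, 0.0254), as did Ndst2 (0.13, 0.0439 and 0.17, 0.0187). Srgn passed with library size alone (0.15, 0.0198). Library size alone moved the median of all genes to 0.13, and 3856 genes then passed as higher and 1767 as lower, in place of 2097 and 2527.

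**Figure D3:**
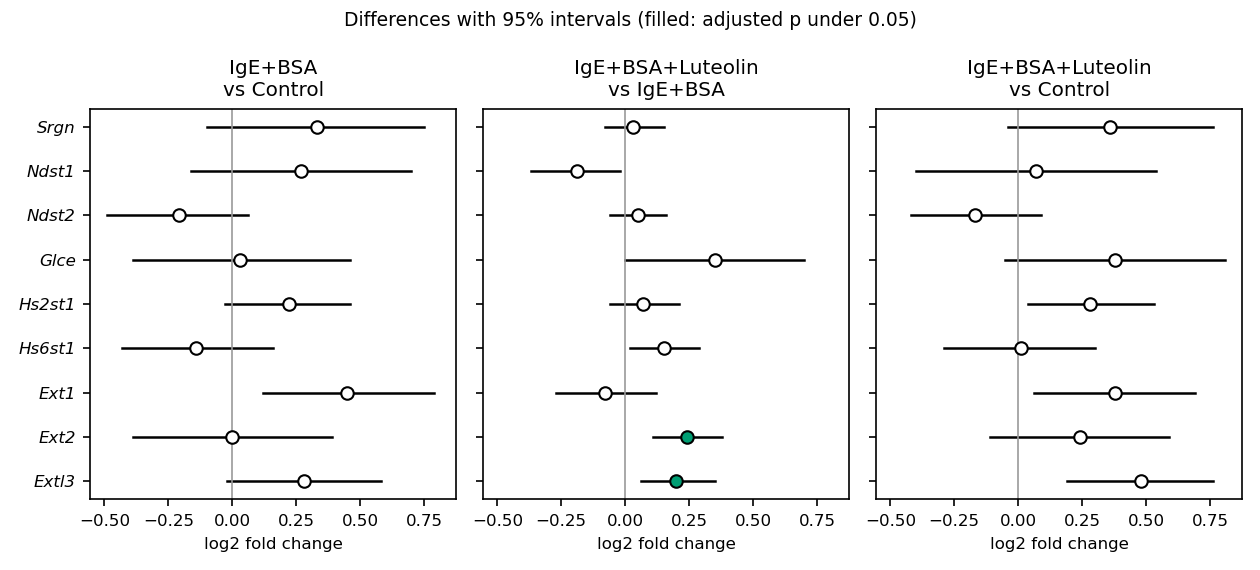
Log2 fold change of each gene with its 95% interval in 3 comparisons, filled where the adjusted p was under 0.05. Only Ext2 (0.24) and Extl3 (0.20) between IgE+BSA+Luteolin and IgE+BSA are filled, and the intervals of both comparisons with Control are wider.

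Against Control, the luteolin group gave 0 of 9 calls by edgeR, where 3.04% of all genes passed. At an unadjusted p under 0.05 there were 3 genes (Hs2st1, Ext1 and Extl3), against 2653 of the 11560 genes tested. DESeq2 called 1 (Extl3), where it called 11.9% of all genes, and limma trend and voom called 0, where they called 2.77% and 2.47%. With all 9 libraries in 1 fit Extl3 passed (0.48, edgeR adjusted p = 0.0203), 1 of the 9, against 10.8% of all genes. Extl3 had the largest difference, at 0.48 ± 0.12 on the log2 scale (SE, 95% interval 0.19 to 0.76, edgeR adjusted p = 0.0839). Ext1 was 0.38 higher (0.06 to 0.69) and Hs2st1 0.28 higher (0.04 to 0.53), and neither passed. Together with Glce these were the 4 of 9 genes whose libraries did not overlap, against 28.5% of all genes. Without Control replicate 1, 5 of 9 genes passed, all higher with luteolin, against 60.0% of all genes. They were Srgn (0.56), Extl3 (0.50), Ext1 (0.47), Ext2 (0.41) and Hs2st1 (0.22). The neutrophil and mast cell marker sums also separated these groups without that library, and their part in the calls was not tested. The 3 comparisons share libraries in pairs, so they are not independent of one another.

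The genes around these 9 steps were read against the share of all genes that passed, 40.0% with luteolin (18.1% higher and 21.9% lower) and 3.27% with stimulation. The linker enzymes, which join the chain to the core protein, were all 7 tested. With luteolin 3 rose and 1 fell, against the 18.1% and 21.9% of all genes: B3galt6, a galactosyltransferase of the linker, rose from 9.90 ± 0.978 to 13.8 ± 0.536 CPM (log2 fold change 0.48, adjusted p = 0.00495 by edgeR). Xylt1, a xylosyltransferase that places the first sugar on serine, fell by 0.45 on the log2 scale, from 28.6 ± 2.32 to 20.9 ± 2.78 CPM (adjusted p = 0.00248). Its difference with stimulation, 0.61, did not pass by edgeR (adjusted p = 0.0594) and passed with DESeq2 (0.57, 0.0057), with all 9 libraries (0.61, 0.0211) and without Control replicate 1 (0.47, 0.00253). B4galt7, the first galactosyltransferase, moved in both comparisons. It was at 42.0 ± 3.68 CPM in Control and 22.0 ± 1.80 CPM in IgE+BSA, a fall by 0.94 (adjusted p = 0.00945), and at 30.1 ± 0.716 CPM with luteolin, 0.46 higher than in IgE+BSA (adjusted p = 0.000556). Luteolin libraries of B4galt7 lay between the other groups. Without Control replicate 2 or any 1 IgE+BSA replicate its log2 fold change with stimulation was -0.89 or further from 0, and the adjusted p was 0.0504 to 0.0986 by edgeR. It was -1.06 without Control replicate 1 (adjusted p = 1.02e-06).

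Of 15 other heparan sulfate genes only 6 were tested, since the rest were under the filter. With luteolin 2 rose and 3 fell, where 40.0% of all genes passed, and with stimulation none passed by edgeR, where 3.27% of all genes did. Hs3st1, a sulfotransferase known for making the antithrombin-binding site of heparin, fell by 0.68, from 95.9 ± 5.03 to 59.7 ± 5.11 CPM (adjusted p = 9.55e-07 by edgeR), and was at 66.1 ± 11.5 CPM in Control. With stimulation it differed by 0.54 and did not pass (adjusted p = 0.0954 by edgeR), while it passed with DESeq2 (0.50, 0.0371), with all 9 libraries (0.54, 0.0329) and without Control replicate 1 (0.35, 0.00143). Extl2, a hexosaminyltransferase of the Ext family, rose by 0.57 (adjusted p = 0.00279). Ndst3 fell by 0.45 (adjusted p = 0.0072), although its libraries overlapped between the groups and the adjusted p was 0.0501 without luteolin replicate 1 and 0.0511 with the length correction (-0.25). Of 16 chondroitin sulfate genes 10 were tested, and 2 sulfotransferases rose with luteolin, where 18.1% of all genes passed as higher: Chst14, which acts on dermatan, by 0.54 (adjusted p = 0.00626) and Chst12 by 0.49 (adjusted p = 9.29e-05). Chst15, which makes the disulfated unit of chondroitin sulfate E, was at 123 ± 4.87 CPM in IgE+BSA and 134 ± 1.58 CPM with luteolin and did not pass (adjusted p = 0.0736).

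Sugar and sulfate donors are made and carried to the Golgi by 19 listed genes, of which 18 were tested. Papss2, a synthase of the sulfate donor PAPS, rose with stimulation from 586 ± 72.1 to 899 ± 28.2 CPM (log2 fold change 0.61, adjusted p = 0.048 by edgeR) and was at 870 ± 23.2 CPM with luteolin. This call was lost with DESeq2-type size factors, library size alone, upper-quartile factors, edgeR's own filter or the replicate block, and when Control replicate 2 or 3 or any IgE+BSA replicate was left out (log2 fold change 0.56 to 0.64, adjusted p = 0.170 to 0.239 by edgeR). Papss2 was 0.67 higher without Control replicate 1 (adjusted p = 3.13e-06). It also passed with the DESeq2 test itself (0.58, 0.000358), and by edgeR with all 9 libraries (0.62, 0.00478) and with the length correction (0.59, 0.0294). With luteolin 4 donor genes rose and 3 fell, a share no larger than the 40.0% of all genes that passed. The nucleotide sugar transporter Slc35d2 rose by 0.53, Uxs1, which makes UDP-xylose, rose by 0.29, and Gnpnat1, an enzyme on the way to UDP-N-acetylglucosamine, fell by 0.28. With stimulation Gnpnat1 differed by 0.63 (adjusted p = 0.0594 by edgeR), and it passed with DESeq2 (0.60, 0.00592), with all 9 libraries (0.63, 0.0124), with the length correction (0.60, 0.0423) and without Control replicate 1 (0.49, 0.00286). Slc35d2 was 0.40 higher without IgE+BSA replicate 3 (adjusted p = 0.0615 by edgeR). Gnpnat1 lost its call with library size alone, upper-quartile factors, no filter or the length correction, and without IgE+BSA replicate 1 or 3 or luteolin replicate 2 (-0.30 to -0.22, adjusted p = 0.0583 to 0.117).

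Of 18 listed enzymes that break the chains down, 15 were tested and 9 rose with luteolin, where 18.1% of all genes passed as higher and 21.9% as lower. None passed as lower, Ids and Arsb had a log2 fold change of -0.15 each, and none passed with stimulation. The rise was 0.71 for Hyal2, a hyaluronidase at low level (2.39 ± 0.284 to 3.90 ± 0.570 CPM, adjusted p = 0.0238 by edgeR), 0.39 for the sulfatase Arsk (adjusted p = 0.0085) and 0.31 for Hgsnat, which acetylates heparan sulfate ends (adjusted p = 0.00611). The median log2 fold change of the tested genes was 0.22, against 0.02 over all genes. This count was 7 to 11 under the other settings at that threshold, where 1210 to 3856 genes passed as higher in place of 2097, and 0 or 1 listed gene passed as lower. In the fit with all 9 libraries 0 listed genes passed, and 176 of all genes passed as higher. The sums of the mast cell and neutrophil markers were also higher with luteolin, as given above, and their part in these counts was not tested. Hyal2 lost its call without IgE+BSA replicate 2 or 3 or luteolin replicate 1 or 2 (0.61 to 0.69, adjusted p = 0.0538 to 0.109 by edgeR). Other proteoglycan cores were mostly under the filter, with 7 of 20 tested. Cd44, a cell surface receptor that can carry such chains, rose with stimulation by 0.65 (adjusted p = 0.0217) and fell with luteolin by 0.47 (adjusted p = 0.000186). Agrn, the heparan sulfate proteoglycan agrin, fell with luteolin by 0.53, and Gpc4, a glypican, rose by 0.88 from 1.43 ± 0.407 to 2.63 ± 0.400 CPM. Both lost their calls without IgE+BSA replicate 3 or luteolin replicate 2 (adjusted p = 0.0864 to 0.124 by edgeR), and Agrn also with the length correction (-0.33, 0.0901). The rise of Cd44 with stimulation was 0.61 to 0.69 without Control replicate 2 or 3 or any 1 IgE+BSA replicate, with an adjusted p of 0.0692 to 0.157, and it did not pass with library size alone or the replicate block. It was 0.58 without Control replicate 1 (adjusted p = 8.76e-05 by edgeR). It also passed with DESeq2 (0.61, 7.84e-06) and with all 9 libraries in 1 edgeR fit (0.65, 0.00512).

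The cargo list held 16 genes for granule proteins and for enzymes and transporters that make or load granule contents. Of these 14 were tested, and with luteolin 8 rose and 2 fell, where 18.1% of all genes passed as higher and 21.9% as lower. With stimulation none passed by edgeR, where 3.27% of all genes did. The list shares 6 genes with the mast cell markers (Cpa3, Cma1, Mcpt4 and Tpsb2, which rose, and Tpsab1 and Hdc, which fell) and Mcpt8 with the basophil markers. The libraries of Mcpt8 overlapped between the groups. The sums of the mast cell, neutrophil and basophil markers were higher with luteolin, at the values given above, and the part of those cells in the cargo counts was not tested. The 2 that fell were Tpsab1, a mast cell tryptase, from 546 ± 71.9 to 219 ± 0.802 CPM (log2 fold change -1.32, adjusted p = 3.01e-10 by edgeR), and Hdc, the enzyme that makes histamine and is not itself held on serglycin, from 845 ± 126 to 378 ± 16.1 CPM (-1.16, adjusted p = 5.51e-09). Hdc was at 404 ± 126 CPM in Control, and its difference between IgE+BSA and Control, 1.06 on the log2 scale, did not pass (edgeR adjusted p = 0.0619). It passed with DESeq2 (1.02, 0.000883), with all 9 libraries in the fit (1.06) and without Control replicate 1 (1.30, 3.26e-07). Mcpt1, a mast cell protease, rose by 0.52, from 96.4 ± 4.58 to 138 ± 18.4 CPM (adjusted p = 8.16e-05). In Control Mcpt1 ranged from 5.19 to 153 CPM. Without Control replicate 1, IgE+BSA had 8 cargo genes higher and 2 lower than Control, 6 and 3 donor genes, 4 and 3 degradation genes, 4 and 1 linker genes, 1 and 2 other heparan sulfate genes, 2 and 1 chondroitin sulfate genes and 1 and 3 other core proteins, in the setting where 45.0% of all genes passed. The marker differences given above for this setting go with the groups, and their part in these counts was not tested. With all 9 libraries in 1 fit, 14 of the 20 pathway genes named for their size of change with luteolin lost their call, and B4galt7, Hs3st1, Extl2, Cd44, Tpsab1 and Hdc kept it. Over all genes, 1093 passed in that fit, in place of 4624.

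**Figure D4:**
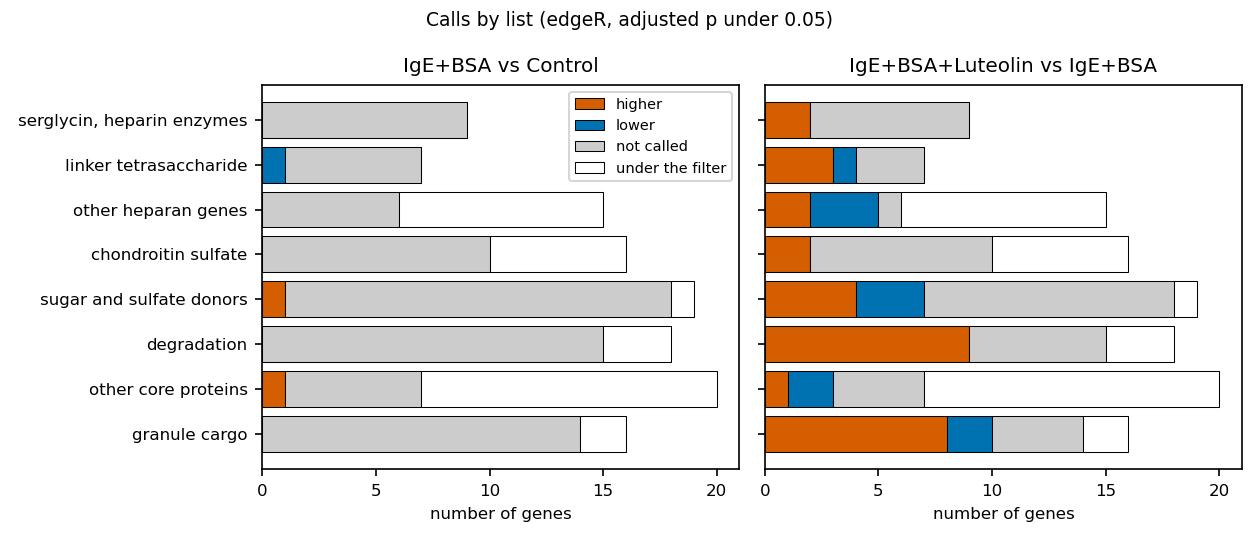
Number of genes per list that were higher, lower, not called or under the filter in IgE+BSA against Control (left) and IgE+BSA+Luteolin against IgE+BSA (right). On the right, 9 degradation genes and 8 cargo genes are higher and 2 of the 9 members are higher, while the left panel holds 1 lower linker gene, 1 higher donor gene and 1 higher core protein.

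The genes whose log2 CPM followed Srgn most closely over the 9 libraries were Chil1 (Pearson r = 0.994), Rbbp7 (0.990), Tnfrsf9 (0.990), Cycs (0.989) and Alox15 (0.988). Without Control replicate 1 their r with Srgn was 0.988 to 0.997, and 3 of the 5 were still among the nearest 5. For Ndst2 the nearest were Hyi (0.959), Thap7 (0.956), Cd2bp2 (0.948), Ptrh2 (0.933) and Ngrn (0.923). Without Control replicate 1 these fell to between 0.732 and 0.908, and none was among the nearest 5. The 9 points share libraries, depth and groups, so these values are a description.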

How the data were processed

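RNA was measured in 9 BMMC libraries in 3 groups of 3, assigned by the treatment in the labels. Per the labels and the study's methods, the authors made stranded mRNA libraries, filtered the reads, aligned them to mm10 with STAR 2.7.0f and deposited raw counts per Ensembl gene. The annotation release and strand setting are not given in the sources used here. The counts were not normalized by the authors, and 24256 of 47643 genes were at 0 in every library.

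Testing was restricted to 11560 genes whose median CPM exceeded 1 and used R 4.3.3 and edgeR 4.0.16 (quasi-likelihood test, TMM factors, two-sided) on the 6 libraries of each comparison. P-values were adjusted by Benjamini-Hochberg over all genes tested, with a threshold of 0.05. Levels between genes use the joint length of all annotated exons of a gene in GENCODE M21 (GRCm38). The fits were tested on simulated data. The study's methods use limma, which was run as an alternative (limma 3.58.1), as was DESeq2 1.42.0. Other alternatives covered scaling, the filter, the libraries fitted, the replicate block, the threshold and each replicate left out. A correction for gene length was chosen after seeing the data. Pathway genes were named by size of change: up to 3 per list with luteolin and up to 2 with stimulation, all past the threshold. Hs6st2, Chst15, Ids, Arsb, Mcpt2, Cd3e, Itga2b and the basophil markers were named after their values were seen. Likeness is Pearson r of log2 CPM with a prior count of 2. The members and lists were chosen with earlier results of these data known. The promoter and transcript sequences are from RefSeq GRCm38.p6 and GENCODE M21.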

Additional observations from a re-analysis of the deposited data

How the results depend on the processing

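Across the 9 members, 427 of the alternative values kept their direction and side of the threshold, 28 passed in addition, 7 no longer passed and 24 changed sign, all among values that had not passed. The number of members called between IgE+BSA+Luteolin and IgE+BSA (2) was 7 with library size alone, 4 with upper-quartile factors, 6 with a length correction chosen after seeing the data, 0 with all 9 libraries in the fit and 1 at an adjusted p under 0.01. The share of all genes under 0.01 was not counted, so this 1 has no background beside it. The number of members called ranged from 1 to 3 when a library was left out, where 28.0% to 44.0% of all genes passed. The replicate block gave 4 (Ndst1 and Hs6st1 in addition), 0 and 0 in the 3 comparisons, and moved all calls from 4624 to 5582 with luteolin, from 378 to 144 with stimulation and from 351 to 212 against Control. Same-numbered libraries correlated in their deviations by -0.0236, 0.175 and 0.283 between the stimulated groups, so the shared numbers do not show a pairing. Counts between IgE+BSA and Control (0) and between IgE+BSA+Luteolin and Control (0) were each 1 with all 9 libraries (9.56% and 10.8% of all genes), the latter was 1 with DESeq2 (11.9%), and both ranged from 0 to 5 when a library was left out, with 5 without Control replicate 1 (45.0% and 60.0%). The cause of these shifts was not tested. For Glce between IgE+BSA and Control the log2 fold change turned to -0.0098 with DESeq2, -0.0041 with DESeq2-type size factors, -0.14 with library size alone, -0.069 with upper-quartile factors and -0.035 with the length correction. For Ext2 in that comparison it turned to 0.018 and 0.012 with limma trend and voom, 0.040 without a filter, 0.00080 with all 9 libraries and 0.016 with the replicate block. Ext1 between IgE+BSA+Luteolin and IgE+BSA turned to 0.036 with library size alone, 0.00017 with upper-quartile factors and 0.090 with the length correction. Hs6st1 between IgE+BSA+Luteolin and Control turned to -0.054 with library size alone and -0.014 with upper-quartile factors. When 1 library was left out, the log2 fold change ranged from -0.038 to 0.12 for Glce and from -0.12 to 0.13 for Ext2 between IgE+BSA and Control, from -0.0014 to 0.076 for Srgn between IgE+BSA+Luteolin and IgE+BSA, and from -0.12 to 0.28 for Ndst1 and -0.097 to 0.11 for Hs6st1 between IgE+BSA+Luteolin and Control. Of the genes nearest to Srgn, 2 to 3 of 5 were kept without 1 Control library, and of those nearest to Ndst2, 0 to 5. Library size alone shifted the median log2 fold change of all genes to -0.15 between IgE+BSA and Control. Depth limits mainly Glce, with 56 counts in its lowest library.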
